A study of Drosophila melanogaster with 12 samples.

Results

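The 6 wild-type libraries of whole Drosophila melanogaster embryos were compared across the stage label of the series, with 3 libraries labelled 0–1 hr preblastoderm and 3 labelled 1.5–2.5 hr late blastoderm. They are the OregonR libraries among the 12 of the series, chosen by genotype and stage label alone. The other 6 came from germline clones of SHMT[X238], a mutation in the gene of serine hydroxymethyltransferase, and enter only where named. OregonR is a laboratory wild-type strain, and no transgene, drug or selected cell type was involved. Flies laid on yeasted apple juice plates. The embryos were dechorionated and frozen, RNA was taken with Trizol, and each library is therefore a pool of whole embryos. The study calls its triplicates biological, but nothing read for this comparison says how the pools of a triplicate were separated. The p-values therefore measure only the spread between these libraries, which may be technical.

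The early fly embryo lives on RNA and protein that the mother loads into the egg. Its nuclei divide rapidly in a shared cytoplasm with almost no transcription. Over the last of these divisions the embryo switches on its own genome, a large part of the maternal RNA is degraded, the divisions stop and membranes close around the nuclei in cellularization. Together these events are called the maternal-to-zygotic transition. Genes of segmentation, dorsoventral patterning, sex determination and furrow formation are transcribed anew at that time, while RNAs of oocyte polarity, meiosis and egg activation belong to the store that is cleared. A comparison of preblastoderm with late blastoderm embryos is thus expected to separate zygotic from maternal RNA.

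Each library held between 21681111 and 35106444 reads assigned to genes, of 14161 genes listed. Reads outside genes took 4.57% to 11.7% of a library, the highest share in replicate 1 of the 0–1 hr label. Levels are given as CPM, the reads of a gene per 1000000 reads of the library after TMM scaling, and are not corrected for gene length. A gene was tested if its mean count reached 50 under either label, and these 6821 genes were compared with edgeR's quasi-likelihood test, adjusted by the Benjamini-Hochberg method over all of them. Differences are log2 ratios of the 1.5–2.5 hr label over the 0–1 hr label, so a negative value means a higher level in the libraries labelled 0–1 hr, and ± after a difference is its standard error. A gene is said to have changed, or to have been higher under a label, where its adjusted p was under 0.05. As these are bulk samples, fewer cells with an RNA and less of it per cell cannot be told apart.

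The markers of the stages ran against the labels. The pair-rule gene eve, which embryos begin to transcribe before cellularization, lies on chromosome arm 2R and had 68.2, 36.9 and 60.9 CPM in replicates 1 to 3 of the 0–1 hr label and 0.275, 0.845 and 0.0544 CPM in those of the 1.5–2.5 hr label. Its level was thus high in all libraries labelled preblastoderm and close to nothing in all labelled late blastoderm (log2 difference −7.09 ± 0.54, edgeR adjusted p = 5.47e-06). The cellularization gene slam, on arm 2L, had 5709, 3228 and 5637 CPM under the 0–1 hr label and 193, 203 and 165 CPM under the 1.5–2.5 hr label, a log2 difference of −4.70 ± 0.25 (adjusted p = 7.38e-07).

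The maternal markers mirrored this pattern. RNA of exu, which the oocyte uses to place bcd RNA, was at 9.10, 9.72 and 9.22 CPM under the 0–1 hr label and at 316, 413 and 388 CPM under the 1.5–2.5 hr label (log2 difference 5.32 ± 0.13, adjusted p = 2.80e-08). RNA of cort, an activator of the anaphase-promoting complex in female meiosis, was at 0.464, 0.831 and 1.36 CPM under the 0–1 hr label and at 46.4, 56.4 and 56.3 CPM under the 1.5–2.5 hr label (5.94 ± 0.28, adjusted p = 4.09e-07). For each of these 4 genes the libraries of the labels did not overlap, as held for 92.4% of all genes tested. In all 4 genes, 6 of 6 libraries went against their stage label. The groups are therefore called the libraries labelled 0–1 hr and 1.5–2.5 hr throughout. If the labels were exchanged, every direction given here would turn over while sizes and tests would stay the same.

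**Figure D1:**
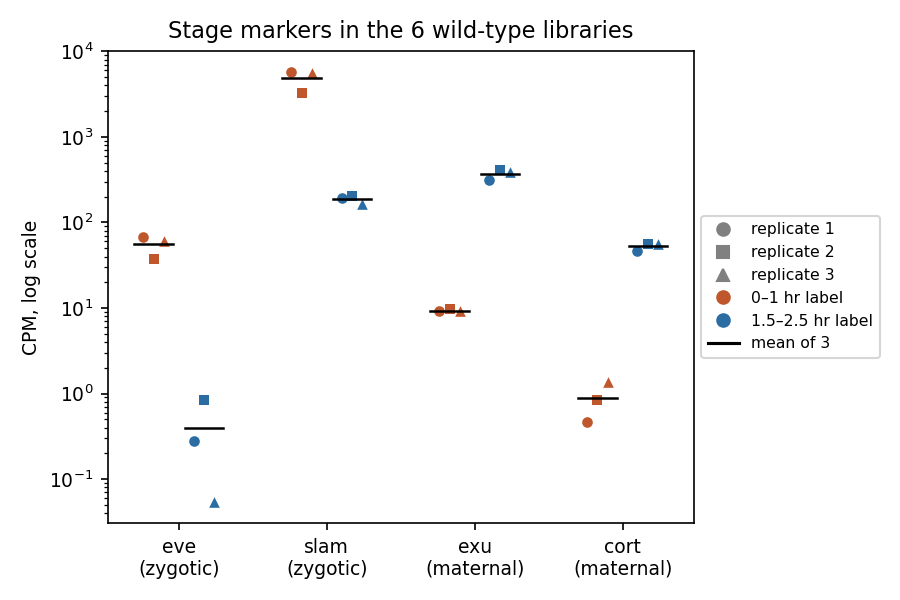
CPM (log axis) of the zygotic markers eve and slam and the maternal markers exu and cort in each of the 6 wild-type libraries, with 1 point per library and a line at each label's mean. The eve and slam points of the libraries labelled 0–1 hr all sit above those labelled 1.5–2.5 hr, and the exu and cort points all sit below them.

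Most genes differed between the labels. Of the genes tested, 6214 changed, which is 91.1%, with 3006 (44.1%) higher under the 0–1 hr label and 3208 (47%) higher under the 1.5–2.5 hr label. This split depends on the scaling: with libraries scaled on ribosomal protein genes instead, the counts were 422 and 4924, and the median log2 difference of all genes moved from 0.09 to 1.39. Library sizes alone gave 2480 and 3602 with a median of 0.49. Small differences are therefore relative to the scaling, whereas 96.6% of the genes past 16-fold were still called past 16-fold under the ribosomal scaling and 99.2% under library sizes alone.

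The extremes differed in shape between the labels. More than 16-fold differences were found for 316 genes higher under the 0–1 hr label (4.63%) and for 867 genes higher under the 1.5–2.5 hr label (12.7%). The ratio of these numbers depends on the minimum of 50 counts: 986 and 1029 genes passed where every gene with at least 1 count was tested, and 518 and 929 with filterByExpr. It also depends on the scaling, with 276 and 1607 genes past 16-fold under ribosomal scaling. Past 64-fold, with TMM scaling, the order turned, with 239 genes higher under the 0–1 hr label and 131 under the 1.5–2.5 hr label. Genes past 64-fold were not counted under the other scalings, which move all genes together. With TMM scaling only 62 genes lay between 4-fold and 16-fold higher under the 0–1 hr label, against 1135 on the other side. Genes high under the 0–1 hr label thus fell into a class with large differences and a class within 4-fold with few between, while those high under the 1.5–2.5 hr label spread over all sizes. At the other end, 41 genes tested had 3 or fewer counts over the libraries labelled 1.5–2.5 hr, and 1 gene over those labelled 0–1 hr.

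By share of reads the order was again different. The 316 genes took 4.03% ± 0.58 (SD, n = 3) of the counts under the 0–1 hr label and 0.0954% ± 0.0259 under the 1.5–2.5 hr label. The 867 genes took 12.1% ± 0.57 under the 1.5–2.5 hr label and 0.304% ± 0.00974 under the 0–1 hr label. The count files list 125 of the 316 and 452 of the 867 by a CG or CR number alone, and some of these have since been named. Libraries of a label were close, with Pearson's r across genes between 0.985 and 0.995 within labels and between 0.487 and 0.558 across them. Genes are not independent replicates, and these values only describe the libraries.

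**Figure D2:**
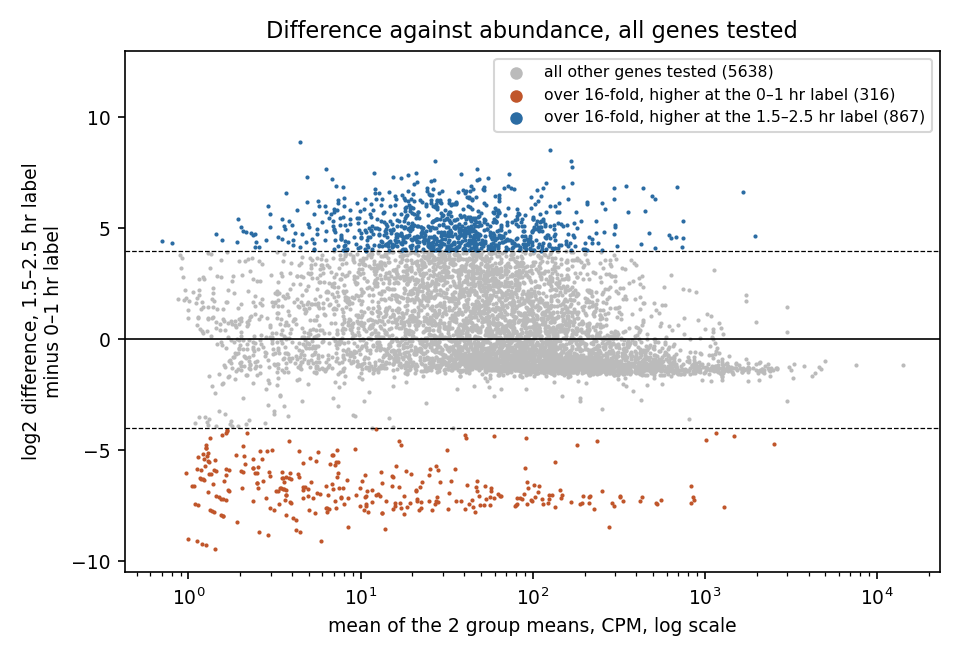
Log2 difference between the labels (1.5–2.5 hr over 0–1 hr) of the 6821 genes tested against their mean level over the 6 libraries in CPM (log axis), with genes past 16-fold coloured by direction. The 316 genes higher under the 0–1 hr label form a group apart near a difference of −7, and the 867 genes higher under the 1.5–2.5 hr label run on from the rest.

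The largest differences toward the 0–1 hr label, among genes whose mean count there reached 100, were those of CG31313, CG33226, CG30283, bxd, DNaseII, SoxN, Art2, term, nub and CG31004. For 7 of these 10 only 1 to 3 reads were counted over all libraries labelled 1.5–2.5 hr. CG31313 had 14.5, 9.20 and 11.4 CPM under the 0–1 hr label and 0.0275, 0.0249 and 0 CPM under the other. Its ratio was 683-fold, with an exact binomial 95% interval of 188-fold to 5647-fold that covers counting error only. The gene term stood out by its level, with 579.7, 543 and 546 CPM under the 0–1 hr label and 1.02, 3.26 and 0.408 CPM under the 1.5–2.5 hr label (log2 difference −8.45 ± 0.59, adjusted p = 3.36e-06).

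Several of these are transcription factors or transcripts of later patterning. SoxN, a Sox protein of the neural ectoderm, had 44.3, 13.9 and 24.9 CPM under the 0–1 hr label and 0.0550, 0.149 and 0 CPM under the other (−8.54 ± 0.72). The noncoding bithorax complex RNA bxd had 10.5, 1.71 and 3.3 CPM under the 0–1 hr label, and the POU-domain gene nub had 16, 2.55 and 6.73 CPM. In all 3, replicate 1 was the highest and replicate 2 the lowest of the 0–1 hr label. DNaseII, an acid DNase, was more even, with 8.64, 6.96 and 9.62 CPM.

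Toward the 1.5–2.5 hr label the largest differences were those of CG42514, CG6927, CG6638, Cyp6a19, CG4991, CG6126, CG17896, IP3K1, wkd and CG16711. CG42514 had 1 read over the libraries labelled 0–1 hr and 6.82, 10.02 and 9.76 CPM under the 1.5–2.5 hr label, a ratio of 618-fold with an exact 95% interval of 111-fold to 24448-fold. CG6927 had 0.250, 0.779 and 1.08 CPM under the 0–1 hr label and 223, 266 and 263 CPM under the 1.5–2.5 hr label (log2 difference 8.54 ± 0.32, adjusted p = 1.30e-07). Cyp6a19, a cytochrome P450, had 0.856, 1.56 and 1.49 CPM against 272, 369.8 and 353 CPM (8.02 ± 0.24), and IP3K1, an inositol trisphosphate kinase, 0.107, 0.156 and 0.136 CPM against 22.8, 24.8 and 24.1 CPM (7.48 ± 0.19). Replicates of the 1.5–2.5 hr label stayed close for the genes shown, while the few reads of CG6927 under the 0–1 hr label were uneven.

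**Figure D3:**
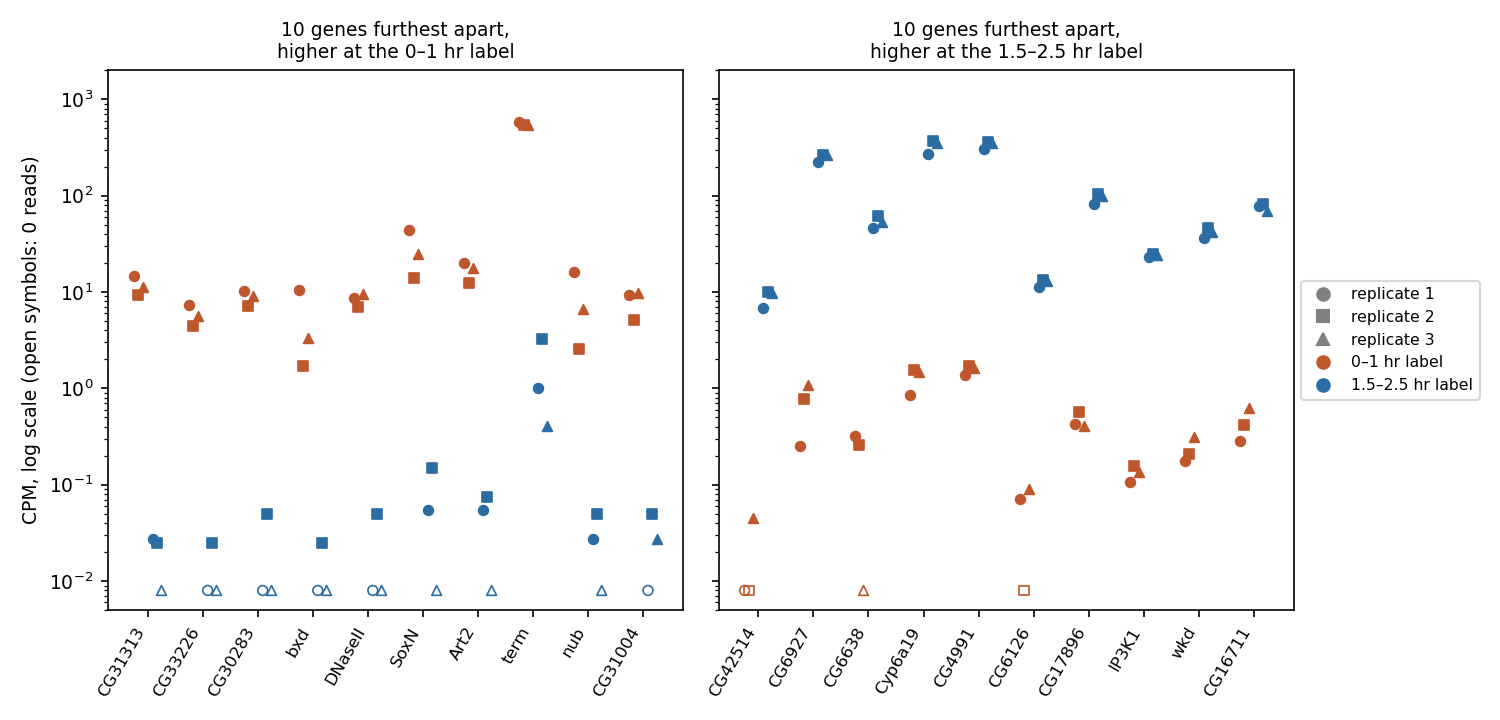
CPM (log axis) in each of the 6 libraries for the 10 genes with the largest differences in each direction, coloured by label, with libraries at 0 drawn as open symbols near the lower edge. The points of the labels do not overlap for any of the 20 genes, which were chosen for their large differences. Of all genes tested, 92.4% had no overlap.

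Genes of cellularization were among the most read of the libraries labelled 0–1 hr. All 9 listed cellularization genes were higher there, 7 of them more than 16-fold, with a median log2 difference of −7.00 against 0.09 over all genes. Over all genes tested, 44.1% were higher under that label and 4.63% were so by more than 16-fold. Besides slam, bnk, which times the closing of the furrow canals, had 1819.9, 1718 and 1638 CPM under the 0–1 hr label and 6.46, 25.3 and 2.23 CPM under the 1.5–2.5 hr label (−7.24 ± 0.87, adjusted p = 8.13e-05). Sry-alpha, which acts on actin at the furrow, had 1957, 1476 and 1529.6 CPM against 13.9, 27.2 and 10.2 CPM (−6.59 ± 0.41). The same order held for halo, which guides lipid droplet transport, with 1283, 973 and 889 CPM against 6.41, 11.1 and 0.843 CPM (−7.41 ± 0.79). CG34137, also known as dunk, had 1131, 1066 and 915 CPM against 4.46, 12.9 and 1.63 CPM (−7.35 ± 0.71).

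The exceptions in size were kuk and trbl. RNA of kuk, which codes for a protein of the nuclear lamina, was at 6097, 4709 and 4839 CPM under the 0–1 hr label and still at 788, 734 and 733 CPM under the 1.5–2.5 hr label, a log2 difference of −2.79 ± 0.12 (adjusted p = 2.03e-07). In bnk, halo and CG34137, replicate 2 of the 1.5–2.5 hr label was the highest of its group and replicate 3 the lowest.

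Other RNAs with many reads shared this pattern. The 10 genes past 16-fold with the highest CPM under the 0–1 hr label were slam, Bsg25D, CG14317, hrg, Nrt, bnk, Bsg25A, Sry-alpha, CG15634 and CG14014, a ranking by reads that was added after values were seen and that is not corrected for length. Bsg25D, the fly ninein, had 3256, 2382 and 2788 CPM under the 0–1 hr label and 135, 142 and 137 CPM under the 1.5–2.5 hr label (−4.35 ± 0.13). Bsg25A and CG15634 code for subunits of the ELBA insulator complex. Bsg25A had 1737, 1754 and 1607 CPM against 8.89, 24.6 and 3.89 CPM, and CG15634 had 1718, 1646 and 1563 CPM against 6.80, 20.6 and 1.98 CPM. Nrt, a cell adhesion protein, had 2177, 1590.2 and 2054 CPM against 84.2, 88.7 and 76.4 CPM. Thus slam, Bsg25D, hrg and Nrt kept between 76.4 and 203 CPM under the 1.5–2.5 hr label, while the other 6 ranked genes were at 27.3 CPM or less in every library of it.

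On the other side, the same ranking gave Hsp83, dhd, CG42351, rdx, Hsp26, BicC, Hsp27, Lsd-2, Pxt and osk. RNA of dhd, a thioredoxin of the female germline, was at 2859, 3825 and 3213 CPM under the 1.5–2.5 hr label and at 33.0, 34.7 and 32.8 CPM under the 0–1 hr label (6.62 ± 0.14). BicC, which represses translation in the oocyte, had 1234, 1547 and 1295 CPM against 11.3, 10.5 and 12.9 CPM (6.87 ± 0.15). CG42351, which holds histones on lipid droplets and is also known as Jabba, had 1421, 1484 and 1459.7 CPM against 34.4, 37.8 and 37.0 CPM (5.32 ± 0.09). Under the 0–1 hr label the replicates of dhd, BicC and CG42351 were close, while dhd ranged from 2859 to 3825 CPM under the other. The ranking took only genes past 16-fold, so the separation of the labels follows from that choice. Of all genes tested, 92.4% had no overlap between the labels.

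Genes that count X chromosomes and set dosage compensation were higher under the 0–1 hr label in 7 of 7 members tested, each past 16-fold, with a median of −6.78. Embryos read the number of X chromosomes through the signals sisA, sc, os and run, which turn on the switch gene Sxl. RNA of sisA was at 91.5, 56.9 and 59.0 CPM under the 0–1 hr label and at 2.31, 0.920 and 0.435 CPM under the other (−5.83 ± 0.49), and that of os, a JAK/STAT ligand, at 124, 62.2 and 109 CPM against 0.523, 0.870 and 0.272 CPM (−7.44 ± 0.42). Sxl itself had 188, 58.9 and 93.2 CPM against 5.64, 6.89 and 4.11 CPM (−4.35 ± 0.46, adjusted p = 3.69e-05). The noncoding dosage compensation RNA roX1 had 886, 389 and 495 CPM against 2.17, 6.71 and 0.625 CPM (−7.52 ± 0.79). For Sxl and roX1, replicate 1 of the 0–1 hr label was over 1.5 times higher than either of the others. The partner RNA roX2 did not reach the count minimum.

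Of 12 gap and head gap genes, 11 were higher under the 0–1 hr label and 1 under the 1.5–2.5 hr label, with a median log2 difference of −7.10. These transcription factors divide the embryo into broad domains. Kr had 286, 187 and 201 CPM under the 0–1 hr label and 0.963, 2.59 and 0.952 CPM under the other (−7.21 ± 0.41, adjusted p = 1.10e-06). The values of kni were 192, 128 and 165 CPM against 0.605, 2.04 and 0.0816 CPM, and those of gt 186, 116 and 166 CPM against 0.578, 1.74 and 0.190 CPM. The terminal gap gene tll had 184, 142 and 154 CPM against 0.495, 1.99 and 0.136 CPM.

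The genes hb and cnc stood apart from the rest of the list. RNA of hb, which the mother deposits and the embryo also transcribes, was at 617, 559.9 and 744 CPM under the 0–1 hr label and at 222, 243 and 244 CPM under the 1.5–2.5 hr label, a log2 difference of −1.44 ± 0.12 (adjusted p = 7.49e-06). When libraries were scaled on ribosomal protein genes, hb no longer passed the test. The head gene cnc, a CNC-bZIP factor, went the other way, with 20.7, 16.9 and 18.9 CPM under the 0–1 hr label and 388, 394 and 368 CPM under the 1.5–2.5 hr label (4.34 ± 0.10, adjusted p = 2.55e-08).

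All 9 pair-rule genes, which set alternate segments, were more than 16-fold higher under the 0–1 hr label, and their median of −7.37 was the most negative of the lists with more than 1 tested member. Levels of ftz were 137, 74.2 and 101 CPM against 0.330, 1.29 and 0.0816 CPM (−7.47 ± 0.59), and those of odd 81.8, 29.0 and 44.6 CPM against 0.138, 0.547 and 0.0272 CPM (−7.70 ± 0.67). For opa, a late pair-rule regulator that was picked after its values were seen, replicate 1 of the 0–1 hr label held 19.2 CPM and replicates 2 and 3 held 1.35 and 2.17 CPM, against 0.0497 to 0.193 CPM under the other label (−6.25 ± 1.33). Most of the opa reads thus came from a single library.

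Segment polarity genes act after the pair-rule genes. Of 8 listed, only ptc, nkd and wg reached the count minimum, and all 3 were higher under the 0–1 hr label. Each reached the minimum only through that label, with 76, 10 and 6 reads over the libraries labelled 1.5–2.5 hr. The minimum thus largely set their direction, and 44.1% of all genes tested were higher under the 0–1 hr label. The Hedgehog receptor gene ptc had 84.6, 29.0 and 57.9 CPM against 0.908, 0.696 and 0.408 CPM (−6.41 ± 0.50), and the Wnt ligand gene wg 3.43, 2.13 and 2.21 CPM against 0.0550, 0.0994 and 0 CPM (−5.52 ± 0.55). None of the 8 homeotic genes listed reached the count minimum. Summed over those 8, the level was 4.93, 3.12 and 3.61 CPM under the 0–1 hr label and 0.193, 0.0994 and 0.190 CPM under the 1.5–2.5 hr label. The homeotic genes together thus made up less than 5 CPM in every library.

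Ventral and neuroectodermal genes were mostly higher under the 0–1 hr label. Of 11 tested of 15, 8 were higher under the 0–1 hr label and 3 under the 1.5–2.5 hr label. The mesoderm regulator twi had 229, 149 and 208 CPM under the 0–1 hr label and 1.18, 2.41 and 0.245 CPM under the other (−7.23 ± 0.56), and sna, its partner, had 193, 134 and 156 CPM against 0.770, 2.34 and 0.217 CPM (−7.15 ± 0.58). The BMP antagonist gene sog had 110.3, 68.6 and 140.3 CPM against 0.138, 1.77 and 0.217 CPM (−7.18 ± 0.69).

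The 3 against this direction were fog, T48 and mthl1, each known for a role in folding the ventral furrow. The secreted ligand gene fog had 27.9, 38.9 and 39.8 CPM under the 0–1 hr label and 205, 194 and 192 CPM under the 1.5–2.5 hr label (2.47 ± 0.15, adjusted p = 1.30e-06). The transmembrane partner gene T48 had 1.89, 2.03 and 2.03 CPM against 36.9, 39.9 and 36.5 CPM (4.25 ± 0.12). The receptor gene mthl1, also called mist, had 29.2, 11.7 and 24.6 CPM against 62.6, 65.6 and 72.9 CPM (1.61 ± 0.29, adjusted p = 9.45e-04). RhoGEF2 and the GTPase gene Rho1, whose products act downstream of fog and which stand in the list of maternal furrow genes, went opposite ways. RhoGEF2 was at 126, 151 and 131 CPM under the 1.5–2.5 hr label against 14.2, 6.50 and 12.1 CPM (3.63 ± 0.26), while Rho1 was higher under the 0–1 hr label (−1.34 ± 0.12), though not with ribosomal scaling.

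Dorsal ectoderm and BMP genes were higher under the 0–1 hr label in 10 of 12 members tested, each of these past 16-fold. Among the BMP ligands, dpp had 37.4, 20.4 and 34.5 CPM against 0.165, 0.224 and 0.0544 CPM (−7.65 ± 0.41) and scw 239, 313 and 307 CPM against 2.53, 4.75 and 0.353 CPM (−6.80 ± 0.65). The protease gene tld, which frees BMP from sog protein, had 377, 281 and 334 CPM against 1.32, 4.25 and 0.517 CPM (−7.32 ± 0.62). The homeobox gene zen had 325, 285 and 262 CPM against 1.90, 3.36 and 0.788 CPM. Against the direction were ush, a GATA cofactor, with 0.571, 0.208 and 0.136 CPM under the 0–1 hr label and 8.23, 9.25 and 9.05 CPM under the 1.5–2.5 hr label (4.75 ± 0.38), and the zinc finger gene peb, at 2.39, 2.29 and 3.88 CPM against 5.09, 5.39 and 5.87 CPM (0.93 ± 0.24, adjusted p = 0.0063).

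Genes of the Bearded and Enhancer of split families, which restrain or answer Notch, were higher under the 0–1 hr label in 6 of 6 members tested of 13. All 6 reached the count minimum only through that label. Over the libraries labelled 1.5–2.5 hr they had from 6 reads, for BobA, to 127 reads, for Tom. The minimum thus largely set their direction, and 44.1% of all genes tested were higher under the 0–1 hr label. Tom had 107, 86.2 and 87.9 CPM against 1.90, 1.12 and 0.353 CPM, and m4 had 43.3, 46.8 and 43.8 CPM against 0.963, 0.423 and 0.190 CPM. For Tom, Brd, Ocho and HLHm7, though not for m4, replicate 1 was the highest of the 0–1 hr label, as with Ocho at 18.8, 9.82 and 11.4 CPM. The members share sequence, and reads of near-identical copies such as BobA may have been divided among them or left out.

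Over the patterning, X-counting and cellularization lists together, 68 genes of 95 were tested, and the others fell short of the count minimum. Of the 68, 62 were higher under the 0–1 hr label, 57 of them past 16-fold, and 6 were higher under the 1.5–2.5 hr label. The 6 are cnc, fog, T48, mthl1, ush and peb, and the median of the 68 was −6.89 against 0.09 over all genes. Of all genes tested, 44.1% were higher under the 0–1 hr label, 4.63% past 16-fold, and 47% under the other. Members with few reads could enter through 1 label alone, which sets their direction. The lists were chosen with earlier results of these data known. Under library sizes alone and under ribosomal scaling these lists kept their direction, apart from 1 gap gene.

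**Figure D4:**
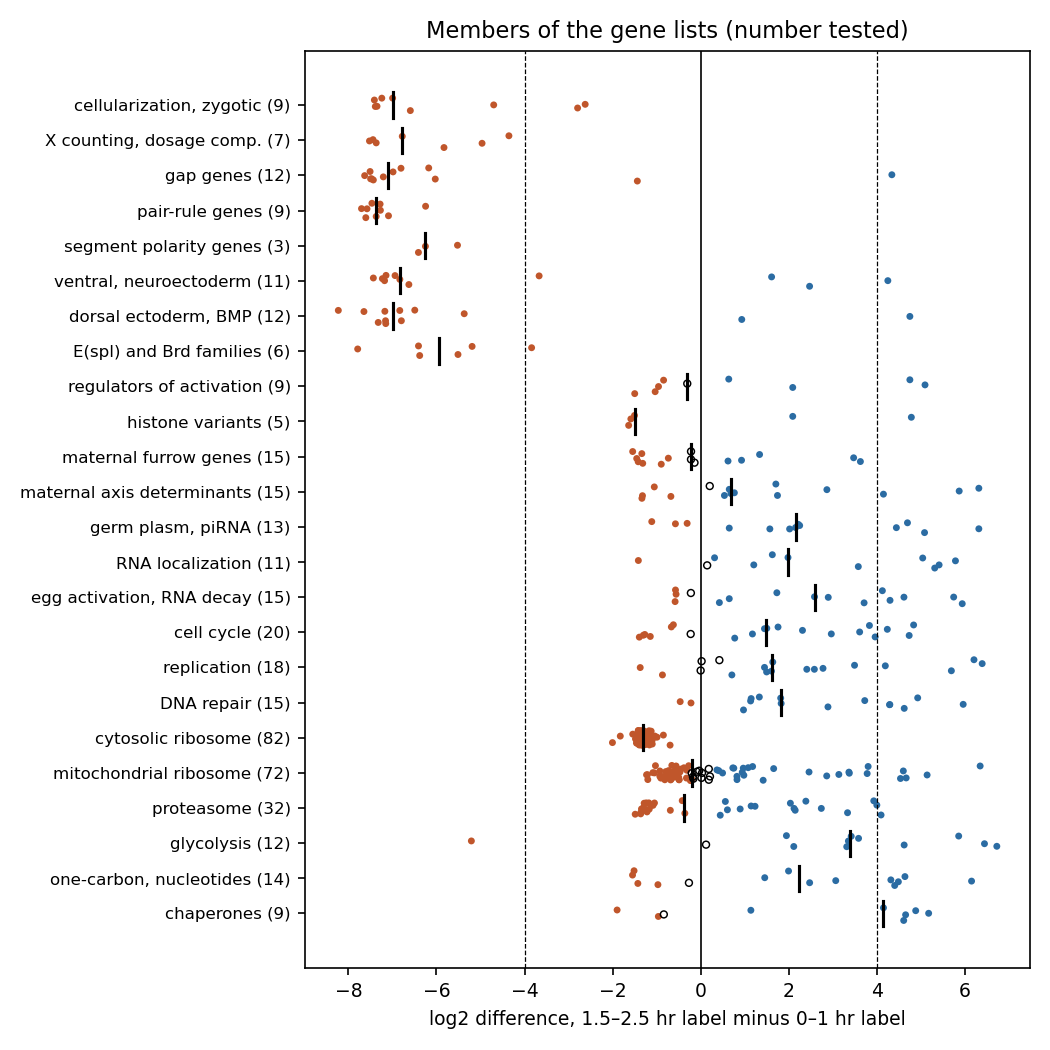
Log2 difference between the labels (1.5–2.5 hr over 0–1 hr) of each tested member of the gene lists, 1 point per gene (open where the test was not passed) with a bar at the list's median and dashed lines at 16-fold. The patterning, X-counting and cellularization lists lie near −7 with a few members above 0, the ribosomal protein genes form a narrow band near −1.32 that moves to about 0 when they are used for scaling, and the oocyte and egg lists spread from near −1.5 to above 5.

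The counts of the lists that follow stand against the shares over all genes tested, of which 44.1% were higher under the 0–1 hr label and 47% under the 1.5–2.5 hr label. Of 9 regulators of genome activation, 4 were higher under the 0–1 hr label, 4 under the 1.5–2.5 hr label and nej did not pass the test, shares close to those of all genes. RNA of vfl, which codes for the pioneer factor Zelda, was at 264, 152 and 209 CPM under the 0–1 hr label and at 321, 360.4 and 291 CPM under the 1.5–2.5 hr label (0.64 ± 0.19, adjusted p = 0.0136). That call was lost with RLE scaling and without replicate 3 of the 0–1 hr label, at adjusted p = 0.0537 and 0.0734. CG1832, the GA-repeat binding factor CLAMP, had 723, 719.7 and 713 CPM against 362, 376 and 372 CPM (−0.96 ± 0.07), a direction that turned under ribosomal scaling (0.34, adjusted p = 0.00435). The 2 members past 16-fold were the repressor gene ttk at 5.10 and the histone chaperone gene Hira at 4.75, both higher under the 1.5–2.5 hr label and both named after their values were seen.

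Of the 5 histone variants tested, 2 were higher under the 1.5–2.5 hr label and 3 under the 0–1 hr label. CG3509, the embryonic linker histone BigH1, had 111, 134 and 114 CPM under the 0–1 hr label and 504, 515 and 509.7 CPM under the 1.5–2.5 hr label (2.09 ± 0.09). The centromeric histone gene cid had 2.71, 1.56 and 1.76 CPM against 47.8, 62.7 and 59.7 CPM (4.78 ± 0.22). His2Av was higher under the 0–1 hr label, with 3095, 3065 and 2887 CPM against 1088, 1066 and 1039 CPM (−1.50 ± 0.07), as were both genes of histone H3.3, His3.3B at −1.64 ± 0.07 and His3.3A at −1.58 ± 0.09.

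The maternal axis genes were far less uniform than the zygotic ones. Of 15, 10 were higher under the 1.5–2.5 hr label, 4 under the 0–1 hr label and tor did not pass. RNA of osk, the organizer of the posterior germ plasm, was at 919.8, 1058 and 1049 CPM under the 1.5–2.5 hr label and at 10.7, 13.0 and 14.2 CPM under the 0–1 hr label (6.32 ± 0.14, adjusted p = 2.28e-08). The Toll ligand gene spz had 155, 179.7 and 169 CPM against 10.1, 9.41 and 8.81 CPM (4.15 ± 0.11). Its target dl, the dorsoventral transcription factor, had 156, 156 and 163 CPM against 2.64, 2.23 and 3.21 CPM (5.87 ± 0.14), a gene picked after its values were seen.

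Within the same pathway other RNAs were nearly level or higher under the 0–1 hr label. The receptor gene Tl had 1576, 1832 and 2007 CPM under the 0–1 hr label and 899.6, 836 and 875 CPM under the 1.5–2.5 hr label (−1.05 ± 0.10), and its inhibitor gene cact had 1558, 1511 and 1535 CPM against 616, 600.4 and 626 CPM (−1.32 ± 0.06). Neither stayed higher under the 0–1 hr label when libraries were scaled on ribosomal protein genes. The anterior determinant bcd, named for its role and not by the rule, differed little with TMM scaling, with 59.8, 109.5 and 92.5 CPM against 147, 132 and 143 CPM (0.69 ± 0.20, adjusted p = 0.0119). This size is relative to the scaling, as the median of the maternal axis list was 0.69 with TMM and 1.99 with ribosomal scaling.

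Germ plasm genes were higher under the 1.5–2.5 hr label in 10 of 13 members, with a median of 2.16. These genes build the cytoplasm that forms the germ cells or guard it against transposons. RNA of tud had 261, 296 and 318 CPM under the 1.5–2.5 hr label and 11.3, 6.39 and 7.86 CPM under the 0–1 hr label (5.08 ± 0.22). Smaller differences were those of pgc, a repressor of transcription in germ cells, with 248, 282 and 258 CPM against 65.7, 57.1 and 46.8 CPM (2.22 ± 0.13), and of gcl, with 360.2, 345 and 363 CPM against 70.02, 85.2 and 84.9 CPM (2.16 ± 0.10). The Piwi-family gene piwi was at 2.25 ± 0.09, while its relatives AGO3, at −1.11 ± 0.15, and aub, at −0.57 ± 0.09, were higher under the 0–1 hr label. With ribosomal scaling none of the 13 was higher under the 0–1 hr label.

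Genes that localize or silence RNA in the oocyte were higher under the 1.5–2.5 hr label in 9 of 11 members, with a median of 1.98. The translational repressor gene aret, or bruno, had 856, 899.5 and 879 CPM against 16.1, 15.0 and 16.5 CPM (5.79 ± 0.09, adjusted p = 2.13e-08). The values for swa, which acts on bcd RNA, were 510.4, 491 and 545 CPM against 33.7, 50.5 and 45.3 CPM (3.58 ± 0.16). Repressor components of the me31B complex were spread in size. Here tral had 2873, 2811 and 2604 CPM against 700.1, 587 and 808 CPM (1.98 ± 0.12) and cup was at 1.63 ± 0.11, but me31B itself had 3422, 3516 and 3095 CPM against 2793, 2888 and 2378 CPM (0.32 ± 0.09, adjusted p = 0.0129), a call lost with RLE scaling and DESeq2. Only sqd was higher under the 0–1 hr label, at −1.41 ± 0.11, and not with ribosomal scaling.

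Egg activation and RNA decay regulators were higher under the 1.5–2.5 hr label in 11 of 15 members, with a median of 2.59, and 3 were higher under the 0–1 hr label. RNA of smg, the main destabilizer of maternal RNA, was at 2735, 2577 and 2649 CPM under the 1.5–2.5 hr label and at 658, 805 and 936 CPM under the 0–1 hr label (1.73 ± 0.13). The poly(A) polymerase gene wisp had 1174, 1085 and 1086 CPM against 139.6, 137 and 173 CPM (2.90 ± 0.11), and the meiotic Polo inhibitor gene mtrm had 659, 739 and 712 CPM against 13.9, 13.4 and 12 CPM (5.75 ± 0.11). The deadenylase subunits differed from each other. The catalytic subunit gene twin was higher under the 1.5–2.5 hr label, at 2.59 ± 0.12, and the scaffold gene Not1 under the 0–1 hr label, at −0.57 ± 0.10. The 3 members against the direction, Not1, plu and sra, lost their calls under library sizes alone and turned under ribosomal scaling.

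Cell cycle genes were higher under the 1.5–2.5 hr label in 13 of 20 members and under the 0–1 hr label in 6, against 47% and 44.1% of all genes tested. Of the Cdc25 phosphatases, which drive mitosis, stg had 577, 565 and 565 CPM under the 1.5–2.5 hr label and 16.7, 24.1 and 23.4 CPM under the 0–1 hr label (4.74 ± 0.16, adjusted p = 6.87e-08). Its homologue twe had 274, 286 and 288 CPM against 414, 479 and 454 CPM, the opposite order (−0.67 ± 0.08). The mitotic cyclins differed likewise. CycB had 4454, 4298 and 4369 CPM under the 1.5–2.5 hr label and 1446, 1615 and 1742 CPM under the 0–1 hr label (1.45 ± 0.08) and CycA was at 0.77 ± 0.07, while CycB3 had 569, 563 and 544 CPM against 1452, 1265 and 1684 CPM (−1.39 ± 0.11). With ribosomal scaling none of the 20 was higher under the 0–1 hr label, so the directions of twe, CycB3, polo, fzy, cdc2 and ial are relative to the scaling.

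Replication genes followed, with 13 of 18 tested members higher under the 1.5–2.5 hr label, 2 under the 0–1 hr label and 3 not past the test. Subunits of the Mcm helicase differed among themselves. Mcm7 had 1296, 1236 and 1220.1 CPM under the 0–1 hr label and 490.3, 478 and 481 CPM under the 1.5–2.5 hr label (−1.37 ± 0.07), whereas Mcm5 had 159, 177 and 176 CPM against 454, 468 and 474 CPM (1.45 ± 0.08). With ribosomal scaling Mcm7 no longer passed as higher under the 0–1 hr label. Ribonucleotide reductase, which makes deoxynucleotides, was higher under the 1.5–2.5 hr label in both subunits, RnrL at 1.64 ± 0.09 and RnrS with 478, 648 and 619 CPM against 45.8, 21.7 and 27.5 CPM (4.19 ± 0.29).

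DNA repair genes were higher under the 1.5–2.5 hr label in 13 of 15 members. The Ku70 gene Irbp, of end joining, had 110.4, 126 and 131 CPM against 4.39, 3.74 and 3.88 CPM (4.93 ± 0.12). Genes of the Mre11 complex, which senses double-strand breaks, did not move together: rad50 was at 4.30 ± 0.18 and nbs at 4.62 ± 0.19, but mre11 had 77.1, 75.7 and 80.7 CPM under the 1.5–2.5 hr label and 89.3, 98.6 and 84.1 CPM under the 0–1 hr label (−0.22 ± 0.09, adjusted p = 0.0425). The mre11 call was lost in 5 of 6 fits without a library and with filterByExpr, and its direction turned with library sizes alone and with ribosomal scaling. The helicase gene mus309 was at 4.29 ± 0.14.

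Of 15 furrow genes that the mother supplies, 7 were higher under the 0–1 hr label, 5 under the 1.5–2.5 hr label and 3 did not pass the test, against 44.1% and 47% of all genes tested in these directions, so that the list lay near the background. None higher under the 0–1 hr label differed by more than 4-fold. The septin gene pnut had 923, 729 and 1077 CPM under the 0–1 hr label and 332, 308 and 296 CPM under the 1.5–2.5 hr label (−1.54 ± 0.14), and Rho1, the GTPase of the contractile ring, 759, 628 and 557 CPM against 268, 257 and 244 CPM (−1.34 ± 0.12). With ribosomal scaling no member was higher under the 0–1 hr label. Both kinesin-1 chains were higher under the 1.5–2.5 hr label, Khc with 364, 339 and 341 CPM against 144, 174 and 230.1 CPM (0.93 ± 0.16) and Klc with 151, 156 and 163 CPM against 9.64, 17.1 and 15.9 CPM (3.47 ± 0.21). No member of this list passed 16-fold, whereas slam, bnk and halo did.

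Ribosomal protein genes moved as a block. All 82 tested were higher under the 0–1 hr label, with log2 differences between −2.003 for RpL22 and −0.69 for RpL38 and a median of −1.32. Their summed level was 167090.0, 179663 and 156994 CPM under the 0–1 hr label and 68543, 67845 and 67719 CPM under the 1.5–2.5 hr label. RpS3A had 7260.1, 6629 and 5509.7 CPM against 2832, 2806 and 2610.2 CPM (−1.23 ± 0.11), and RpL5 had 5058, 4613 and 3857 CPM against 2122, 2060.2 and 2015 CPM (−1.13 ± 0.10). A family with this share of reads enters the scaling itself, and without a spike-in the counts do not show whether the ribosomal protein RNAs or the other RNAs were level.

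Mitochondrial ribosomal protein genes lay on both sides. Of 72 tested, 36 were higher under the 0–1 hr label, 26 under the 1.5–2.5 hr label and 10 did not pass, with a median of −0.20 that became 0.21 under library sizes alone. These shares are near the 44.1% and 47% of all genes tested. The range ran from −1.23 for mRpS6 to 6.35 for mRpL38. mRpS9 had 164, 169.9 and 151 CPM under the 0–1 hr label and 76.2, 79.9 and 78.1 CPM under the other (−1.05 ± 0.08), and mRpL12 had 40.2, 47.7 and 43.5 CPM against 117, 117 and 118 CPM (1.42 ± 0.09). Under ribosomal scaling 69 of 72 were higher under the 1.5–2.5 hr label and none under the 0–1 hr label.

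Proteasome genes split by subcomplex, a division made after values were seen. All 13 tested genes of the core particle, which holds the proteolytic sites, were higher under the 0–1 hr label, with a median of −1.18 and a range of −1.36 to −0.36, but none with ribosomal scaling. Of 18 genes of the regulatory particle, which unfolds substrates, 15 were higher under the 1.5–2.5 hr label and 3 under the 0–1 hr label, with a median of 1.64. With ribosomal scaling 16 of the 18 were higher under the 1.5–2.5 hr label. Prosbeta7, of the core, had 787, 835 and 731 CPM under the 0–1 hr label and 295, 309 and 311 CPM under the other (−1.36 ± 0.08), while Rpn5, of the regulatory lid, had 99.8, 108 and 91.0 CPM against 406, 412 and 407 CPM (2.04 ± 0.09). The exceptions in the regulatory particle were Rpt4, Rpn12 and Rpn6. The gap between the medians of the subcomplexes was about the same in each of the scalings, since a scaling moves all genes together.

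Glycolytic genes were higher under the 1.5–2.5 hr label in 10 of 12 members, with a median of 3.39. Tpi, triose phosphate isomerase, had 186, 227 and 219.8 CPM under the 1.5–2.5 hr label and 1.71, 2.23 and 2.08 CPM under the 0–1 hr label (6.73 ± 0.15), Gapdh2 had 883, 1025 and 1009 CPM against 9.92, 11.5 and 12.1 CPM (6.45 ± 0.13) and PyK, pyruvate kinase, 502, 538 and 510.2 CPM against 6.67, 9.77 and 10.4 CPM (5.86 ± 0.18). Aldolase, Ald, did not pass the test, with 199, 220.5 and 275 CPM under the 0–1 hr label and 265, 257 and 235 CPM under the other (0.12 ± 0.13, adjusted p = 0.376). The lactate dehydrogenase gene ImpL3 had 14.1, 14.2 and 12.3 CPM under the 0–1 hr label and 0.248, 0.298 and 0.544 CPM under the 1.5–2.5 hr label (−5.21 ± 0.28, adjusted p = 8.12e-07), the only one higher under the 0–1 hr label.

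Genes of folate and nucleotide metabolism were higher under the 1.5–2.5 hr label in 9 of 14 tested members and under the 0–1 hr label in 4, against 47% and 44.1% of all genes tested. The study's own gene, CG3011 or SHMT, which passes a carbon unit from serine to folate, had 77.6, 87.1 and 88.4 CPM under the 1.5–2.5 hr label and 3.18, 3.90 and 4.25 CPM under the 0–1 hr label (4.49 ± 0.14, adjusted p = 4.74e-08), and is named for its role in the study. In purine synthesis, ras, the IMP dehydrogenase gene, had 119.8, 133 and 132 CPM against 5.96, 6.39 and 5.83 CPM (4.41 ± 0.10), and bur, the GMP synthetase gene of the following step, 421, 406 and 419 CPM against 798, 805 and 837 CPM (−0.97 ± 0.07). CG17273, adenylosuccinate synthetase, was at −1.43 ± 0.10 and CG3590, the lyase after it, at 2.00 ± 0.15. Successive enzymes thus differed in sign, although with ribosomal scaling no member was higher under the 0–1 hr label.

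Chaperone genes were higher under the 1.5–2.5 hr label in 6 of 9 tested members and under the 0–1 hr label in 2, against 47% and 44.1% of all genes tested. Hsp83, the fly Hsp90 and a well-known maternal RNA, had 3649.9, 3805 and 3858 CPM under the 1.5–2.5 hr label and 185, 129 and 134 CPM under the 0–1 hr label (4.65 ± 0.16, adjusted p = 8.33e-08). The small heat shock genes did not act as a class, with Hsp26 at 1305, 1522 and 1369 CPM against 77.3, 83.0 and 75.8 CPM (4.15 ± 0.10) and Hsp23 at 72.4, 70.5 and 89.3 CPM against 244, 349 and 272 CPM (−1.90 ± 0.16). Hsc70-4, a constitutive chaperone, had 6188, 6165 and 7445 CPM under the 0–1 hr label and 3451, 3179 and 3544 CPM under the other (−0.96 ± 0.09), a direction that turned to 0.33 with ribosomal scaling.

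Gene structure differed between the ends of the comparison. Short genes without introns can be transcribed fully within a brief interphase, which is known for many early zygotic genes. Of the genes past 16-fold and higher under the 0–1 hr label, 72 of 310 with an annotated structure (23.2%) had a single exon, against 80 of 859 (9.31%) on the other side and 631 of 6708 (9.41%) over all tested. The share was 25.8% past 64-fold and 15.6% between 16-fold and 64-fold, and below that it stayed between 6.07% and 9.84% in all classes of either direction. Among the patterning and cellularization genes 21 of 67 (31.3%) had a single exon. Annotated transcript lengths, taken over exons without introns, differed less. Their medians were 2031 bases, 2276 bases and 2062 bases for the genes high under the 0–1 hr label, those high under the 1.5–2.5 hr label and all tested. Lengths that include introns were not compared. Neighbouring genes are not independent, and these shares are given without a test.

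**Figure D5:**
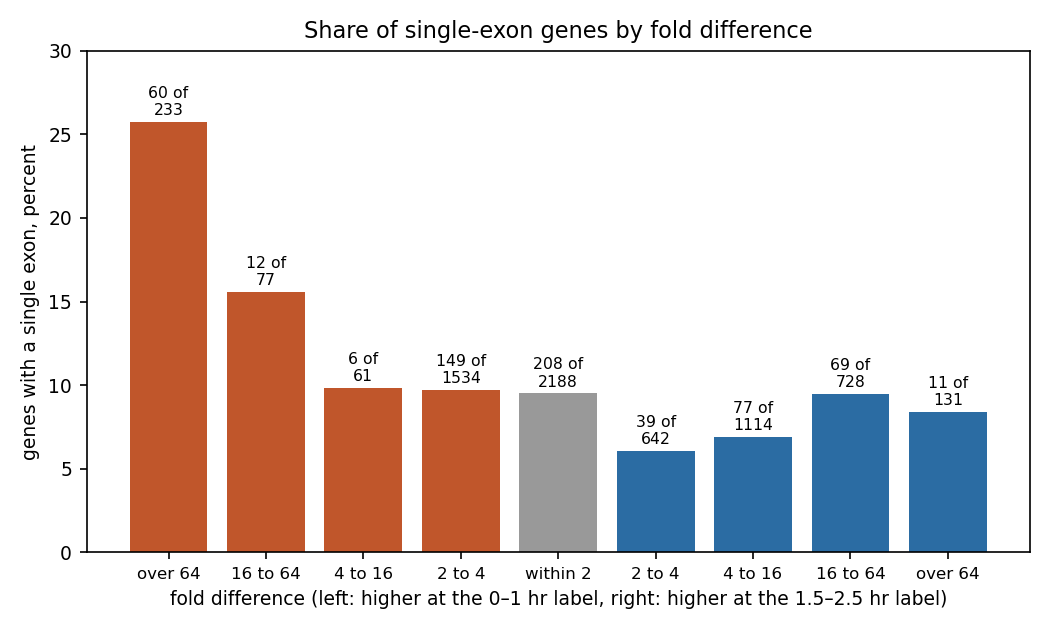
Percent of genes with a single annotated exon in 9 classes of the difference between the labels, from more than 64-fold higher under the 0–1 hr label to more than 64-fold higher under the 1.5–2.5 hr label, with the single-exon genes and all genes with a structure counted above each bar. The bars start at 0 and reach 25.8% and 15.6% in the classes highest under the 0–1 hr label, while all others are below 10%.

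By chromosome, the X held 33 of the 316 genes past 16-fold and higher under the 0–1 hr label (10.4%), 194 of the 867 on the other side (22.4%) and 1182 of all tested (17.3%). Arm 3L held 26.3% of the 316 genes and 19.4% of all tested.

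Libraries of a label also differed from each other in a common way. In 252 of the 316 genes (79.7%) replicate 1 was the highest of the 0–1 hr label, and in 232 (73.4%) replicate 2 was the lowest. Over all tested genes replicate 1 was the highest in 34.4%. The order was visible in odd, roX1, Sxl and SoxN above, and the 3 libraries differ in the share of reads outside genes, which was 11.7%, 7.66% and 7.11%. Without replicate 1 the number past 16-fold and higher under the 0–1 hr label was 275, and without replicate 2 it was 347. The part of that share in this order was not tested.

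Among the libraries labelled 1.5–2.5 hr, replicate 2 held the most of these RNAs in 224 of the 316 genes (70.9%) and replicate 3 the least in 224 (70.9%). For the 239 genes past 64-fold, the level in replicates 1 to 3 was 0.588%, 1.18% and 0.162% of the 0–1 hr mean by the median, and 32, 8 and 61 of them had no read at all. In the other direction, the 131 genes past 64-fold had 1.06%, 0.947% and 1.11% of the 1.5–2.5 hr mean left in the libraries labelled 0–1 hr. The residue thus differed among replicates more on the first side than on the second.

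RNAs of eggshell, yolk and gut, epidermis, and blood and fat were scarce under both labels, while single members of the muscle and neuronal lists were not. None of 12 eggshell genes, 12 yolk and gut genes, 12 epidermal genes and 12 blood and fat genes reached the count minimum. Summed levels were 0.0275 to 4.42 CPM for eggshell, 0.217 to 0.749 CPM for yolk and gut, 0.497 to 4.60 CPM for epidermis and 1.33 to 6.23 CPM for blood and fat. The mean sum for epidermis was 3.37 CPM under the 0–1 hr label and 0.612 CPM under the other. For blood and fat it was 5.73 and 1.60 CPM. The highest eggshell sum, in replicate 2 of the 0–1 hr label, came from 83 reads of Cp15, a chorion protein gene of follicle cells. Of 11 testis genes only mia was tested, at −1.26 ± 0.13, and of 12 neuronal genes only Syx1A, at −0.77 ± 0.08. The neuronal sum was 109 to 128 CPM under the 0–1 hr label and 67.4 to 69.1 CPM under the other. In the muscle list Tm1 made up most of a sum of 1194 to 1438 CPM under the 0–1 hr label and 607 to 651 CPM under the other, while Mef2, a muscle regulator, had 67.8, 61.1 and 61.3 CPM under the 1.5–2.5 hr label and 2.11, 2.49 and 2.76 CPM under the 0–1 hr label (4.70 ± 0.13).

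In embryos of SHMT germline clones the same labels were compared, and an edgeR fit of all 12 libraries tested for each gene whether the difference between labels depended on genotype. Of 6884 genes, 221 (3.21%) had a difference that varied by more than 4-fold between genotypes, 172 of them further toward the 1.5–2.5 hr label in wild type and 49 further toward the 0–1 hr label. Of the 229 genes that the naming rule selected, 12 were among them, and the rule picked some genes by the size of their wild-type difference. For stg the log2 difference was 4.62 in wild type and 2.14 in SHMT (adjusted p = 2.39e-05), and for osk it was 6.20 and 3.33 (adjusted p = 0.00291). HLHm7, of the Enhancer of split complex, was at −3.95 and −8.98 (adjusted p = 5.77e-04). In wild type it had only 176 reads over the libraries labelled 0–1 hr and 19 over those labelled 1.5–2.5 hr. Patterning genes other than HLHm7 were not among the 12, although some passed the same test at less than 4-fold. These include cnc, at 4.23 in wild type and 2.41 in SHMT (adjusted p = 2.86e-04), and fog, at 2.36 and 1.21 (adjusted p = 0.0167).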

How the data were processed

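RNA-seq reads of whole embryos were sequenced on an Illumina instrument in biological triplicate. Per the labels, the authors used CASAVA 1.8.2, Bowtie2 2.1.0 and HTSeq with build dm3 and deposited raw counts of reads per gene, 1 file per library. No source read here gives the HTSeq version or how strand was treated, and reads of overlapping or antisense genes therefore cannot be told apart. The 5 summary entries of each file were dropped, which hold reads outside genes (4.57% to 11.7% of a library) and ambiguous reads (1.33% to 1.53%). Genes whose mean count reached 50 under either label were fitted on the 6 wild-type libraries with edgeR 4.0.16 (TMM, quasi-likelihood test, R 4.3.3), and p-values were adjusted over all 6821 genes. Standard errors are the log2 difference over the square root of F. The fit was tested on simulated data made from these libraries, with 200 genes changed, equally in both directions. There 94% of genes changed 2-fold and 100% of those changed 4-fold, 24-fold or 64-fold were recovered among 6762 genes. Of the unchanged genes 0.046% were called. Since few genes were changed there and in balance, these rates do not carry over to calls that depend on the scaling. Floors and count ratios cover counting error only. Gene structures came from Ensembl BDGP6.54, matched by symbol for 13903 of 14161 genes (3235 through a synonym), and no coordinates are printed, since the builds differ.

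Named were eve, slam, exu and cort, the 10 genes with the largest difference in each direction (adjusted p under 0.05, over 16-fold, mean count of 100 or more where higher), up to 6 members per list with the most counts, and list members that changed against the majority. Genes outside this rule are said to be so where they appear, and this also holds for trbl and for the members named as exceptions or at the ends of a range. Members and lists were chosen with earlier results of these data known. The replicate numbers of the labels were not used as pairs. Alternatives were other scalings, count minimums and thresholds, DESeq2 1.42.0, a fit of all 12 libraries, a replicate block and leaving out each library. Promoter sequences were not analysed here.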

Additional observations from a re-analysis of the deposited data

Results flagged for a closer look

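Among the named genes, 12 had a difference between the labels that itself differed between wild type and SHMT germline clones, by a test of the interaction across 12 libraries (edgeR, adjusted p under 0.05 and more than 4-fold). All values here are log2 differences, and the gap is wild type minus SHMT. Further toward the 1.5–2.5 hr label in wild type were CG42514 (gap 3.55), IP3K1 (3.02), osk (2.87), stg (2.48), CG6927 (2.43), Hsp27 (2.26), CG16711 (2.23), wkd (2.22) and CG4991 (2.20), each of them higher under that label in both genotypes. In SHMT the differences of these genes ran from 2.14 for stg to 5.99 for CG6927. Some of the gaps rest on few reads. Over the wild-type libraries labelled 0–1 hr, CG42514 had 1 read, IP3K1 9, wkd 16 and CG16711 30, against 1451 for stg. Of the 12, CG42514, IP3K1, CG6927, CG16711, wkd, CG4991 and DNaseII were named for their large differences in wild type. That choice favours a larger difference in wild type than in SHMT.

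HLHm7 had a gap of 5.03, being higher under the 0–1 hr label in both genotypes but less so in wild type, where it rests on 19 reads over the libraries labelled 1.5–2.5 hr. DNaseII had a gap of −3.85, with −8.68 in wild type and −4.83 in SHMT (adjusted p = 0.0306), and rests on 2 reads under the 1.5–2.5 hr label in wild type. Mlc2, a myosin light chain gene of muscle, had a gap of −4.50, with −1.44 in wild type and 3.06 in SHMT (adjusted p = 0.00373). It was the only one of the 12 opposite in sign, and 19 of all 221 genes called were so. With ribosomal scaling the wild-type difference of Mlc2 was −0.029 and did not pass the edgeR test (adjusted p = 0.93). The SHMT libraries carry the same stage labels, and the difference in stage between the genotypes' libraries was not tested.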

How the results depend on the processing

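All 4 stage markers kept their direction and their call under every alternative in which single genes were checked. The 20 genes with the largest differences did so too, wherever they met the count minimum. Single genes were not checked with glmTreat against 16-fold. With ribosomal protein genes as the scale, 422 genes were higher under the 0–1 hr label and 4924 under the 1.5–2.5 hr label, 1883 genes passed 16-fold (1607 of them higher under the 1.5–2.5 hr label), and 72 and 251 list members were called in the respective directions, against 243 and 159 with TMM. This follows from the scale itself, which moves every gene by the same amount. Under it the following log2 differences turned positive: mre11 1.08, nej 0.98, Rpn6 0.89, plu 0.75, aub 0.73, Not1 0.72, sra 0.72, polo 0.68, twe 0.64, RpL38 0.61, Syx1A 0.53, CG1832 0.34, Hsc70-4 0.33, bur 0.33, mRpS9 0.25, Tl 0.24, AGO3 0.19, RpL5 0.18, cdc2 0.16, Tm1 0.11, mRpS6 0.077, RpS3A 0.071, Rpn12 0.068, ial 0.037 and mia 0.036. Library sizes alone turned mre11 to 0.19 and nej to 0.11, RLE scaling and DESeq2 each turned Ald to −0.013, and testing all genes with at least 1 count turned mre11 to 0.023. The count minimum sets how many lowly read genes enter. The number called at any fold stayed within 1.5 times throughout, but the number past 16-fold did not. Without a minimum 2015 genes passed 16-fold, 986 of them higher under the 0–1 hr label, and the latter count was 518 with filterByExpr and 207 with a minimum of 200 counts. Leaving out single libraries gave 6030 to 6261 genes called and 1166 to 1205 past 16-fold, of which 275 to 347 were higher under the 0–1 hr label. Without replicate 3 of the 0–1 hr label vfl and spi lost their calls (adjusted p = 0.0734 and 0.0614) and Ald and tor gained one, and without replicate 2 of that label nej gained one at −0.52. The call of me31B was lost without replicate 2 of the 1.5–2.5 hr label (adjusted p = 0.0546), and that of mre11 in every such fit but the one without replicate 3 of the 0–1 hr label. With glmTreat against 16-fold, 913 genes passed. Same-numbered libraries of the labels did not deviate together (correlations −0.0459, −0.1413 and 0.085), and a fit with the replicate number as a block gave 2962 and 3184 genes in the respective directions, 6139 of the 6214 calls being shared. Among the named genes the block changed 1 call, that of mre11 (−0.22, adjusted p = 0.0945). The interaction count was 316 with library sizes alone and 210 with the replicate block, against 221. The comparison of promoter windows was not run. At these depths a floor of 3 counts over a label's libraries is 0.0432 CPM at 0–1 hr and 0.0265 CPM at 1.5–2.5 hr.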
